A study of Mus musculus with 176 samples.

Results

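The 37 genes of the mouse mitochondrial genome were examined in single CD4 T cells that did or did not bind an MHC class II tetramer loaded with the apolipoprotein B peptide P6. The genes were chosen by name, as every row of the count table whose gene name starts with mt-, which gave 37 of 53546 gene names. They comprised 13 protein-coding genes, 2 rRNA genes and 22 tRNA genes. Female C57BL/6J mice, 7 weeks old at purchase, were immunized intramuscularly with 100 µg of P6 peptide, first at week 0 with complete and then at week 2 with incomplete Freund's adjuvant. Their inguinal and para-aortic nodes, which drain the site of injection, were taken at week 4. Antigen-experienced CD4 T cells (TCRβ+CD4+CD44hi CD62L-) were exposed to the kinase inhibitor Dasatinib, stained with tetramer and index sorted as single cells into tetramer-positive (P6+, 32 cells) and tetramer-negative (P6-) wells. P6+ and P6- cells were sorted from separate parts of the sample volume, so the part sorted differs with the sign in each comparison. The P6+ cells came from 1 mouse, which limits them as a model of P6-specific cells in general, and the labels do not name the animal of any P6- cell. Transcripts primed with oligo-dT were amplified by the Smart-Seq2 protocol, which gives full-length cDNA without molecular identifiers.

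Mitochondrial DNA encodes subunits of the respiratory chain complexes I, III and IV and of the ATP synthase, together with the rRNAs and tRNAs of the mitochondrial ribosome. Both strands are transcribed as long precursors, and excision of the tRNAs that punctuate the genome releases the mRNAs and rRNAs. All other proteins of the organelle are encoded in the nucleus and imported. The share of mitochondrial reads in a cell is widely used as a quality measure in single-cell sequencing.

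Parts of the mitochondrial genome are also present as copies in the nuclear genome, and these bear on how reads could be assigned. In the GENCODE annotation of GRCm38, 7 pseudogenes on chromosome 1, between positions 24611535 and 24616197 on the minus strand, matched mitochondrial mRNA genes in order from mt-Co1 to mt-Nd4, with none annotated for mt-Atp8, and 6 of them did so without a single differing base over the aligned stretch. The pseudogene Gm28437 (chr1:24613189-24613971) held 783 of the 784 bases of mt-Co3, the gene of cytochrome c oxidase subunit 3 (chrM:8607-9390, plus strand, a single exon). The first 90 bases of both (chrM:8607-8696, plus strand, and chr1:24613882-24613971, minus strand), given here in the direction of the mt-Co3 transcript because they show that a read of this stretch has no unique origin, were the same.
mt-Co3 and Gm28437: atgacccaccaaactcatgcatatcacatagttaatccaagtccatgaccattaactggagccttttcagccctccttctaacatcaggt
The pseudogene Gm29216 (chr1:24615706-24616197) matched the end of mt-Co1, the gene of the catalytic subunit 1 of cytochrome c oxidase, with 1 differing base in 483. That base, A1066T with positions counted from the first base of mt-Co1, is in capitals in the 60 bases from position 1063 of mt-Co1 and from position 10 of the pseudogene.
mt-Co1: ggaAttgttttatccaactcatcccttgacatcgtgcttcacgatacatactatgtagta
Gm29216: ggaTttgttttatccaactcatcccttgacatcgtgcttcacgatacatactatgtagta
Of all stretches of 150 bases, the read length, 99.8% of those in mt-Co3, 99.4% in mt-Co2, 99.4% in mt-Atp6, 97.97% in mt-Nd4l, 96.98% in mt-Nd3, 59.2% in mt-Nd4 and 23.6% in mt-Co1 were also present in an annotated nuclear transcript. The share was 0 for mt-Atp8, mt-Cytb, mt-Nd1, mt-Nd2, mt-Nd5, mt-Nd6, mt-Rnr1 and mt-Rnr2. Nuclear sequence outside annotated transcripts was not searched, so copies there would be missed. A count that keeps only reads with a single best position therefore leaves the levels of mt-Co3, mt-Co2, mt-Atp6, mt-Nd3 and mt-Nd4l uncertain, and those of mt-Nd4 and mt-Co1 uncertain in part. Further, mt-Atp8 overlaps mt-Atp6, and mt-Nd4l overlaps mt-Nd4, on the same strand.

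All 32 P6+ cells carried the name prefix P6_, which 12 P6- cells shared, while all other P6- cells carried 7 other prefixes. The read names placed prefixes 2 to 5 in sequencing lane 1 and prefixes 6 to 9, and so all P6+ cells, in lane 2. P6+ cells were therefore set against the P6- cells of the same name prefix, and then against the P6- cells of all name prefixes, so that both comparisons share the P6+ cells. At least 500000 reads and 2000 genes per cell were required, which left 32 P6+ cells, 11 P6- cells of the same prefix and 12 to 24 P6- cells of each other prefix. The limit of the methods on mitochondrial reads was not applied, since it acts on the quantity described. Their minimum mapping rate was not applied either. Some P6- cells that the authors rejected are therefore among those kept, while the authors rejected no P6+ cell. Reads on genes ranged from 956280 to 3332191 in P6+ cells and from 522188 to 3401372 in P6- cells. A median of 4396 genes was detected in P6+ cells, against 3674 in the P6- cells of the same prefix and 3418 in all P6- cells. The 8 CD4 T cell markers summed to 5944 reads per 1000000 (cpm) in P6+ cells and 6042 cpm in all P6- cells. The 4 erythroid markers were at 0 and the 5 myeloid markers summed to under 1 cpm in each group. Each group counted as 1 sample, no test was made, and 95% intervals, exact binomial for shares and exact Poisson for sums, cover counting error only.

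Mitochondrial reads made up a smaller share of the reads in P6+ cells than in P6- cells. Pooled over cells, the share was 1.42% in P6+ cells (95% interval 1.42 to 1.43%, 843908 of 59345284 reads), 5.64% in P6- cells of the same prefix (5.63 to 5.65%, 871052 of 15442960 reads) and 5.04% in all P6- cells (5.04 to 5.05%). The ratio of P6+ to P6- was -1.99 on the log2 scale within the prefix, or 3.97-fold lower, and -1.83 over all prefixes, or 3.55-fold lower. Whether P6+ cells held less mitochondrial RNA or more nuclear RNA cannot be told apart from shares.

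Cell by cell, the P6+ shares ran from 0.505% through a median of 1.29% to 2.82%. The 11 P6- cells of the same prefix ran from 1.65% through a median of 6.45% to 7.87%. The groups overlapped at their edges, with 1 of 11 P6- cells under the highest P6+ cell and 6 of 32 P6+ cells over the lowest P6- cell, but 0 of 11 P6- cells were at or under the P6+ median. Among all P6- cells, the share ran from 0.893% through a median of 3.70% to 40.7%, and 35 cells (25.5% of them) were under the highest P6+ cell while 5 were at or under the P6+ median.

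**Figure D1:**
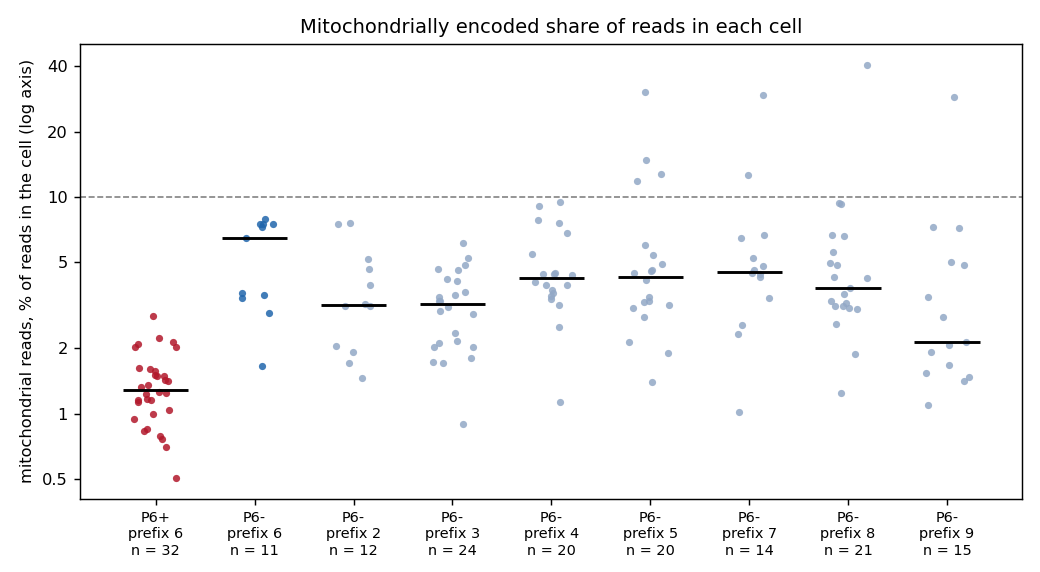
Each point is the mitochondrial share of the reads of 1 cell, in percent on a log axis, for the P6+ cells and for the P6- cells of each name prefix, and black lines are medians. The dashed line marks 10%, and the median of every P6- prefix, from 2.14 to 6.45%, is above the P6+ median of 1.29%.

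The P6- cells sequenced in the lane of the P6+ cells also had a higher pooled share. Those of lane 2, prefix 6 included, had a share of 5.32% (n = 61 cells), with a log2 ratio of -1.90. By prefix, the pooled P6- share ran from 3.28% in prefix 3 to 7.03% in prefix 5. Prefix 9 came closest to the P6+ cells in its median, at 2.14% over 15 cells. Because no P6+ cell carried another prefix, a contrast between the signs could be formed within prefix 6 only.

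Measures other than mitochondrial reads also moved with the groups. Of the 2 nuclear long non-coding RNAs listed for RNA quality, both were at least 2-fold lower in P6+ cells within the prefix and 1 over all prefixes, where 25.5% and 26.1% of all genes of at least 20 cpm were. Malat1 had 1182 cpm in P6+ cells, 2977 cpm in P6- cells of the same prefix and 1402 cpm in all P6- cells. Neat1 had 0.236, 186 and 94.8 cpm in the same order, with 71.3% of its reads of P6- cells of the same prefix in 1 cell, without which the level there was 56.8 cpm, and at least 10 reads in 0 of 32, 2 of 11 and 17 of all P6- cells. Of the 5 B cell markers, 2 reached 20 cpm, and both were at least 2-fold higher in P6+ cells within the prefix and 1 over all prefixes, beside 47.2% and 25.3% of all genes at that level. Ighm carried most of their reads, at 999 cpm in P6+ cells, 300 cpm in P6- cells of the same prefix and 522 cpm in all P6- cells, and 1 cell held 48.1% of its reads in P6- cells of the same prefix, without which that level was 171 cpm. Cd79b, part of the B cell receptor, had 46.1 cpm in P6+ cells, where 2 of 32 cells had at least 10 reads and the level was 16.1 cpm without the higher of them, 0 cpm in P6- cells of the same prefix and 0.00934 cpm in all P6- cells, while Cd79a was at 0 in each group. The summed B cell markers ranged from 0 to 7238 cpm over P6+ cells and from 0 to 7611 cpm over all P6- cells, with medians of 4.33 and 0.923 cpm. The 4 markers of CD8 T and NK cells were at 0 in P6+ cells and summed to 0.130 cpm in P6- cells of the same prefix and to 11.5 cpm in all P6- cells, of which 93.99% of reads came from 1 cell. The part of Malat1, of Neat1, of these markers and of the number of genes per cell in the mitochondrial difference was not tested. Within the P6+ cells, Spearman's rho of the mitochondrial share was 0.34 with total reads and -0.17 with the number of genes (n = 32 cells, which share a name prefix and a sequencing lane).

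All 6 gene classes had a lower pooled share in P6+ cells, in both comparisons. Within the same prefix the log2 ratio was -1.60 for the mt-Nd genes of complex I, -2.11 for mt-Cytb of complex III, -1.81 for the mt-Co genes of complex IV, -1.93 for the mt-Atp genes of the ATP synthase, -2.20 for the rRNAs and -1.94 for the tRNAs. Over all prefixes the values were -1.52, -2.08, -1.92, -1.48, -1.62 and -1.97 in the same order. As shares of reads these were 0.182 against 0.553% of reads for mt-Nd, 0.317 against 1.37% for mt-Cytb, 0.479 against 1.68% for mt-Co and 0.441 against 2.03% for the rRNAs, in P6+ cells against P6- cells of the same prefix. The mt-Atp and tRNA classes were small, at 0.00187 against 0.00715% and 0.00103 against 0.00394%.

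The make-up of the mitochondrial reads can be described apart from their amount. In P6+ cells, 33.7% of mitochondrial reads fell on mt-Co genes, 31.02% on rRNA, 22.3% on mt-Cytb and 12.8% on mt-Nd genes. In P6- cells of the same prefix the shares were 29.7, 36.01, 24.3 and 9.80%, and in all P6- cells 36.04, 26.8, 26.6 and 10.3%. Single cells varied widely around these values. The rRNA part ran from 11.6 to 71.8% over P6+ cells, with a median of 30.4%, and from 10.6 to 71.3% over P6- cells of the same prefix, with a median of 38.6%.

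**Figure D2:**
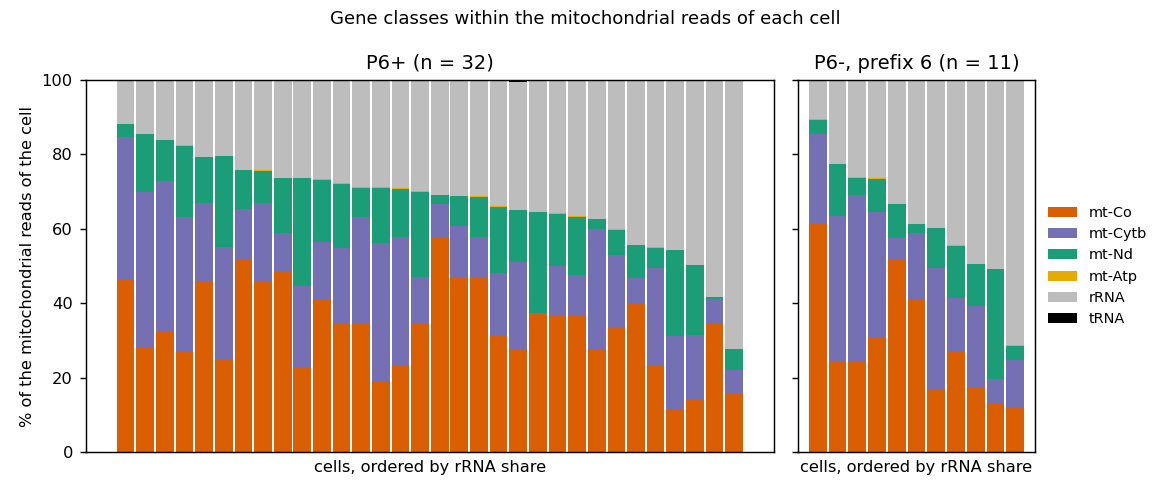
Each bar is 1 cell and shows the percent of its mitochondrial reads on each gene class, for 32 P6+ cells and 11 P6- cells of the same prefix, with cells ordered by rRNA share. The rRNA part spans nearly the same range in both groups, from 11.6 to 71.8% and from 10.6 to 71.3%, and mt-Atp and tRNA are too small to see in most bars.

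Of the 37 genes, 13 reached 20 cpm in the higher group of the same-prefix comparison, and 13 of 13 were at least 2-fold lower in P6+ cells. Among all 6809 genes that reached this level, 25.5% were at least 2-fold lower. Among the 151 genes that reached 1000 cpm the share was 21.9%, and 6 of 6 mitochondrial genes at this level were at least 2-fold lower. Over all prefixes, 12 of 13 mitochondrial genes were at least 2-fold lower, against 26.1% of 7354 genes, and 5 of 5 at 1000 cpm, against 13.8% of 130 genes. The median log2 ratio of the 13 genes was -2.09 within the prefix and -1.86 over all prefixes, beside 0.73 and 0.04 for all genes at 20 cpm. With single cells left out, the number within the prefix ran from 10 to 13, and mt-Nd5 and mt-Nd6 were the mRNA genes among them that came short of 2-fold. By medians over cells, 10 of the 13 were at least 2-fold lower within the prefix, with mt-Nd5 higher in P6+ cells, and 8 of 13 over all prefixes, with mt-Nd5 and mt-Nd6 higher. The 13 genes are read from shared precursors and are not independent of each other.

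**Figure D3:**
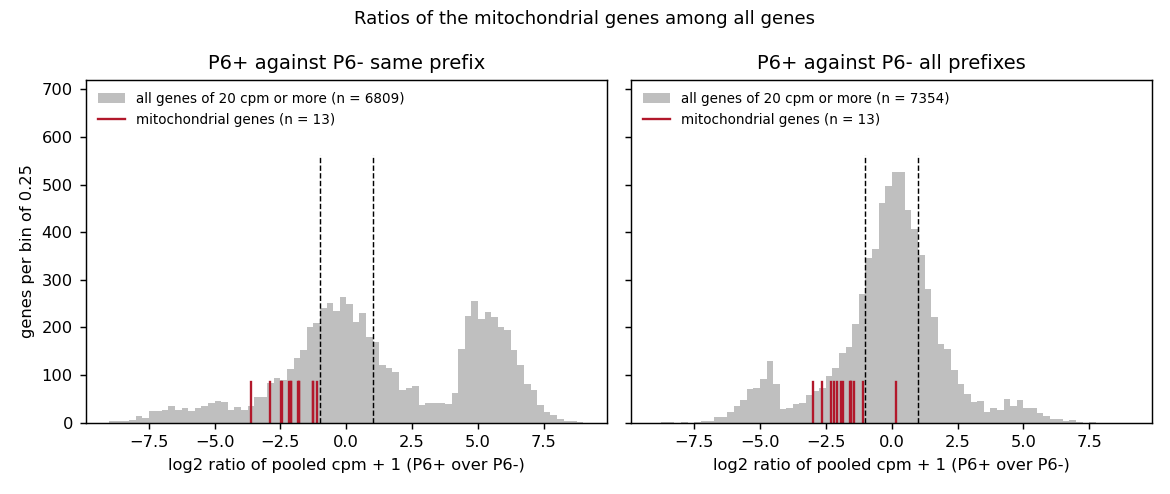
The histograms show the log2 ratio of pooled cpm, P6+ over P6-, with 1 cpm added to both, for all genes of at least 20 cpm in the higher group, and red marks show the 13 mitochondrial genes. Dashed lines mark a ratio of 2-fold. All 13 marks are to the left of the lower line for the same prefix, and 12 are for all prefixes, with mt-Nd6 at 0.15.

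Among the genes of complex IV, mt-Co1 (chrM:5328-6872, plus strand) had the highest level per length in P6+ cells, at 3071 cpm per kb. It ran from 1094 through a median of 4632 to 9761 cpm over P6+ cells, and from 3664 through 13646 to 38201 cpm over P6- cells of the same prefix. Over all P6- cells it ran from 38.2 through 14299 to 137424 cpm. The highest P6+ cell was under 7 of 11 P6- cells of the same prefix and under 67.9% of all P6- cells, and the pooled log2 ratios were -1.79 and -1.91. The 2 other subunits were counted far less. mt-Co3 had 32.2 cpm in P6+ cells, 243.8 cpm in P6- cells of the same prefix and 262 cpm in all P6- cells. Its highest P6+ cell, at 69.6 cpm, was under 9 of 11 P6- cells of the same prefix and 81.8% of all P6- cells. mt-Co2 (chrM:7013-7696) had 11.2 cpm in P6+ cells, and its log2 ratios were -2.43 and -2.17. Both are among the genes with a nuclear copy.

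For complex III, mt-Cytb (chrM:14145-15288, plus strand), the gene of the cytochrome b subunit, ran from 26.5 through a median of 2169 to 10483 cpm over P6+ cells. It ran from 4287 through 7814 to 32475 cpm over P6- cells of the same prefix and from 37.2 through 8351 to 225831 cpm over all P6- cells. The lowest P6+ cell stood apart, as the next one had 558 cpm. The highest P6+ cell was exceeded by 3 of 11 P6- cells of the same prefix and by 37.96% of all P6- cells. No stretch of read length of this gene occurred in an annotated nuclear transcript, and its log2 ratios were -2.11 and -2.08.

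The rRNAs lie near the start of the genome and form the mitochondrial ribosome. mt-Rnr2, the rRNA of the large subunit (chrM:1094-2675), ran from 1199 through a median of 3662 to 8140 cpm over P6+ cells. It ran from 2406 through 16512 to 47594 cpm over P6- cells of the same prefix, of which 9 of 11 were above every P6+ cell. Its log2 ratio was -2.18 within the prefix and -1.59 over all prefixes. mt-Rnr1, the rRNA of the small subunit (chrM:70-1024), had 306 cpm in P6+ cells, 1726 cpm in P6- cells of the same prefix and 1116 cpm in all P6- cells. Per length it was counted less than mt-Rnr2 in each group, at 320 against 2595 cpm per kb in P6+ cells and 1807 against 11749 cpm per kb in P6- cells of the same prefix.

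**Figure D4:**
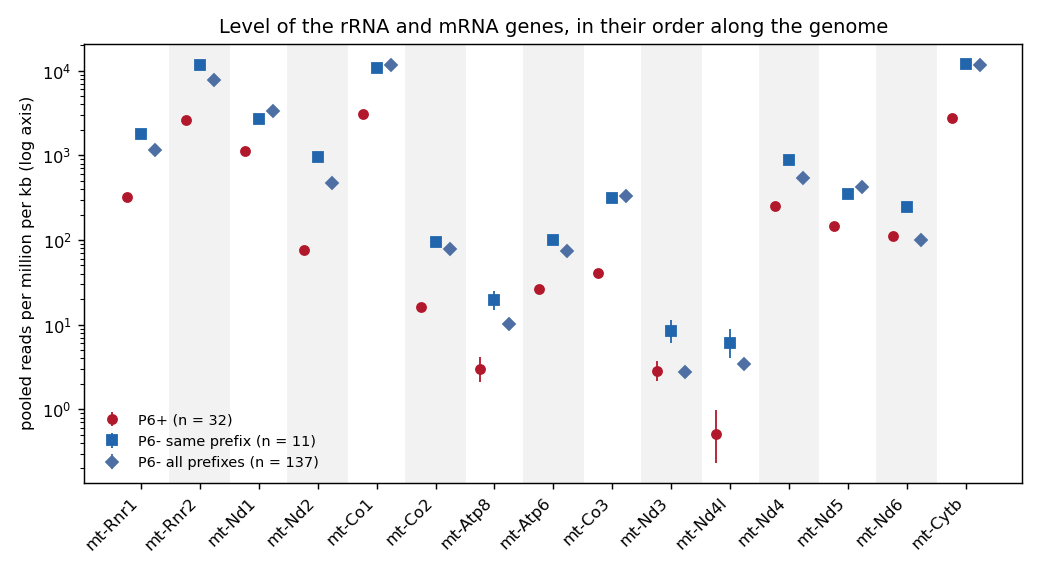
Points are pooled levels in cpm per kb, on a log axis, of the 2 rRNA and 13 mRNA genes in their order along the genome, and bars are exact Poisson 95% intervals, which cover counting error only and are mostly smaller than the points. P6+ points lie under both P6- points for 13 of the 15 genes, while mt-Nd6 and mt-Nd3 in P6+ cells lie near the level of all P6- cells.

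The 7 mt-Nd genes encode core subunits of complex I, the NADH dehydrogenase. mt-Nd1 (chrM:2751-3707) led them with 1072 cpm in P6+ cells, 2573 cpm in P6- cells of the same prefix and 3159 cpm in all P6- cells, and its log2 ratios were -1.26 and -1.56. The ratios of its medians over cells were -0.55 and -0.78, short of 2-fold. mt-Nd4 had 349, 1208 and 736 cpm in the same order, and its ratio over all prefixes of -1.08 came to -0.96, short of 2-fold, when a single cell was left out. mt-Nd2 had 78.2, 979 and 489.8 cpm. Within the prefix, 50.7% of its P6- reads came from 1 cell, without which its log2 ratio moved from -3.63 to -2.71.

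mt-Nd1, mt-Nd2, mt-Nd4, mt-Nd5 and mt-Nd6 were each counted low in one set of cells and higher in another, in P6+ cells and in P6- cells of the same prefix. Over P6+ cells, mt-Nd1 was at or under 10.9 cpm in 10 cells and at or over 408 cpm in the other 22, with no cell between. In P6- cells of the same prefix it was at or under 7.85 cpm in 3 cells and at or over 438 cpm in 8. mt-Nd4 was at or under 6.35 cpm in 8 P6+ cells and at or over 46.8 cpm in 24, and in P6- cells of the same prefix at or under 3.62 cpm in 2 and at or over 324.6 cpm in 9. mt-Nd5 was at or under 2.92 cpm in 11 P6+ cells and at or over 17.7 cpm in 21. In P6- cells of the same prefix, 6 were at or under 4.66 cpm and 5 at or over 64.3 cpm.

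The direction for mt-Nd5 depended on how cells were combined. Pooled, it had 265 cpm in P6+ cells, 638 cpm in P6- cells of the same prefix and 774 cpm in all P6- cells, with log2 ratios of -1.26 and -1.54. The median over cells had the opposite order, at 211 cpm in P6+ cells, 4.66 cpm in P6- cells of the same prefix and 28.5 cpm in all P6- cells. At least 10 reads were counted in 21 of 32 P6+ cells, 5 of 11 P6- cells of the same prefix and 51.1% of all P6- cells. A single P6- cell held 56.1% of the reads within the prefix, and without it the log2 ratio was -0.18. mt-Nd5 was thus lower in pooled reads through high values in part of the P6- cells, of which 34 exceeded the highest P6+ cell at 869 cpm.

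mt-Nd6 is the single protein-coding gene on the strand opposite to the others (chrM:13552-14070, minus strand). It had 57.98 cpm in P6+ cells (95% interval 56.06 to 59.95 cpm), 126.2 cpm in P6- cells of the same prefix and 52.1 cpm in all P6- cells (51.2 to 53.1 cpm). Its log2 ratio was -1.11 within the prefix and 0.15 over all prefixes, and it was 0.01 against the P6- cells of lane 2. Within the prefix, 1 P6- cell held 37.04% of the P6- reads, and without it the ratio was -0.72, short of 2-fold. Among the 13 genes of at least 20 cpm it was the exception over all prefixes. By prefix, the pooled P6- level ran from 26.5 cpm in prefix 5 to 126.2 cpm in prefix 6, so prefix 6 was the highest of 8. At least 10 reads were counted in 21 of 32 P6+ cells and in 51.1% of all P6- cells. The median over cells was 30.7 cpm in P6+ cells, 60.6 cpm in P6- cells of the same prefix and 9.29 cpm in all P6- cells. The library did not mark strand, so reads of mt-Nd6 and reads of the opposite strand over the same positions cannot be told apart, and which strand setting of the counting was deposited is not given in the sources used here.

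**Figure D5:**
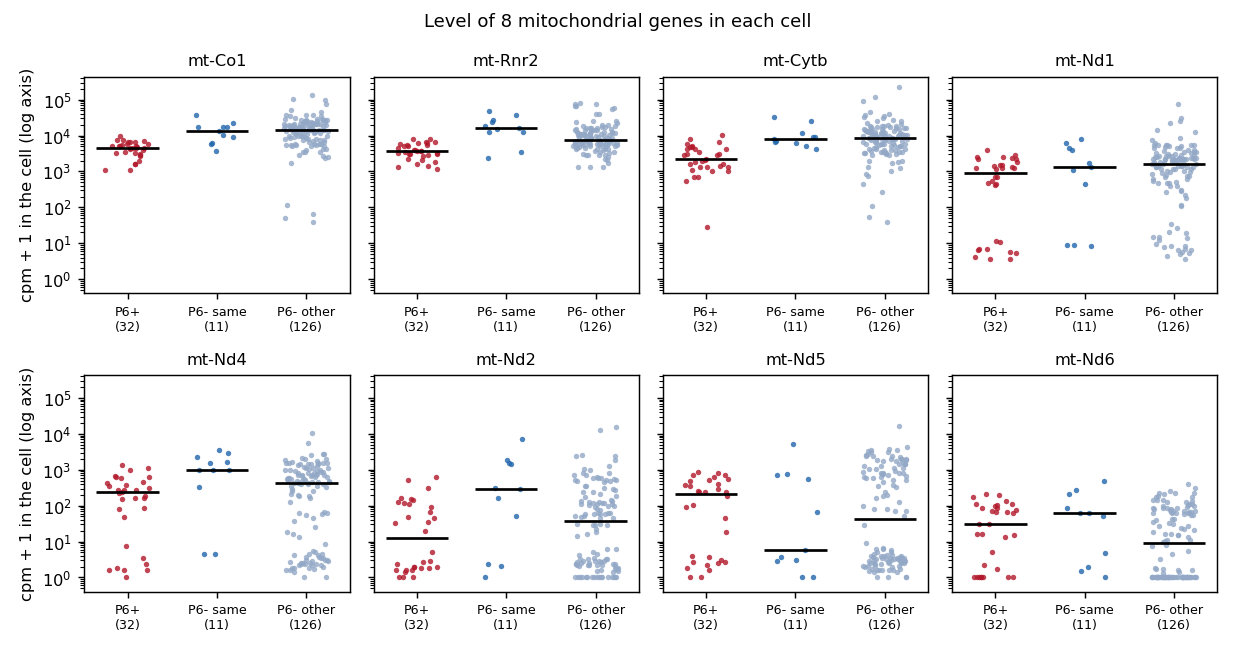
Each point is 1 cell and gives cpm + 1 on a log axis for 8 mitochondrial genes, in 32 P6+ cells, 11 P6- cells of the same prefix and the P6- cells of other prefixes, and black lines are medians. mt-Co1, mt-Rnr2 and mt-Cytb lie lower in P6+ cells, and the mt-Nd5 median is higher in P6+ cells. The 5 mt-Nd genes shown spread over a wide range, with gaps of different width between cells.

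The remaining mRNA genes were counted at low levels. mt-Atp6 of the ATP synthase had 18.1 cpm in P6+ cells, 67.5 cpm in P6- cells of the same prefix and 50.02 cpm in all P6- cells. mt-Atp8, of the same complex, had 0.607, 4.01 and 2.07 cpm, and mt-Nd4l had 0.152, 1.81 and 1.03 cpm. mt-Nd3 had 0.994 cpm in P6+ cells and 0.972 cpm in all P6- cells, with overlapping intervals (0.757 to 1.28 and 0.844 to 1.11 cpm), so no difference was detectable over all prefixes at this depth. In P6- cells of the same prefix it had 2.91 cpm (2.13 to 3.90 cpm), with 88.9% of the reads in 1 cell, and without that cell the level was 0.363 cpm. All 4 lie in the part of the genome with a nuclear copy or overlap such a gene.

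The nuclear copies were counted at levels that ranged from well under to above those of the mitochondrial genes they match. In P6+ cells, Gm29216 had 98.2 cpm against 4744 cpm of mt-Co1, and Gm28439 had 6.39 cpm against 349 cpm of mt-Nd4. Gm28437, the copy of mt-Co3, had 92.6 cpm in P6+ cells, 454 cpm in P6- cells of the same prefix and 468 cpm in all P6- cells, more than mt-Co3 in each group. Of the 12 annotated copies found, 8 reached 20 cpm within the prefix, and 8 of 8 were at least 2-fold lower in P6+ cells, beside 25.5% of all genes. The 7 copies on chromosome 1 differ from the mitochondrial genes by at most 1 base over the aligned stretch. Whether their reads came from mitochondrial RNA was not tested, so they are not separate from the mitochondrial genes. The 12 copies summed to 346 cpm in P6+ cells, 1439 cpm in P6- cells of the same prefix and 1259 cpm in all P6- cells. Added to the mitochondrial reads, they left the log2 ratios at -1.99 and -1.83.

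The 22 tRNA genes took 9234 reads over all cells kept, and 85.3% of these fell on 3 genes. They are shown with the anticodon in capitals, found as the middle of a loop of 7 bases closed by a paired stem, because all 3 genes lie on the minus strand, opposite to the rRNAs and to most mRNA genes.
mt-Tq (chrM:3772-3842): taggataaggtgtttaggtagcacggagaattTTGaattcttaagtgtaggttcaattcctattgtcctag
mt-Tp (chrM:15356-15422): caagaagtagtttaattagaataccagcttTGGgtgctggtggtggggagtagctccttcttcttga
mt-Ta (chrM:5018-5086): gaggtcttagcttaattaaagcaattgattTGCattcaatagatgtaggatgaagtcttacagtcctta
mt-Tq, the glutamine tRNA, took 59.1% of tRNA reads, mt-Tp, the proline tRNA, 21.9% and mt-Ta, the alanine tRNA, 4.32%. mt-Tq had 4.13 cpm in P6+ cells (3.63 to 4.68 cpm), 20.9 cpm in P6- cells of the same prefix and 24.3 cpm in all P6- cells. Within the prefix, 1 P6- cell held 43.8% of its reads, and without that cell its log2 ratio moved from -2.09 to -1.40. mt-Tp had 5.24 cpm (4.67 to 5.86 cpm), 9.84 cpm and 8.00 cpm, and mt-Ta had 0.101, 0.389 and 1.84 cpm. Without 1 P6- cell of the same prefix, the level there was 6.32 cpm for mt-Tp, and all reads of mt-Ta in those cells came from 1 cell. In P6+ cells the intervals of mt-Tp and mt-Tq overlapped, while mt-Tq was the highest tRNA in P6- cells. Each tRNA gene is shorter than a read and borders other genes, and mt-Tq, mt-Tp and mt-Ta each lie beside a gene of the opposite strand, so these counts are uncertain. mt-Tg, mt-Th, mt-Tk and mt-Tw had 0 reads in every cell kept, which at 3 counts allows up to 0.0506 cpm over the P6+ cells.

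A few genes dominated the mitochondrial reads of a cell. In both groups a median of 4 genes held 90% of them. mt-Co1 led in 15 P6+ cells, mt-Rnr2 in 11 and mt-Cytb in 6. In P6- cells of the same prefix, mt-Rnr2 led in 5 of 11, and mt-Co1 and mt-Cytb in 3 each. Over all P6- cells, mt-Co1 led in 83, mt-Cytb in 27, mt-Rnr2 in 24, mt-Rnr1 in 2 and mt-Nd1 in 1. The leading gene held a median of 38.9% of mitochondrial reads in P6+ cells and 43.4% in all P6- cells, and at most 63.9 and 94.4%. With every cell thinned to 522190 reads, a median of 13 of the 37 genes was detected in P6+ cells, against 15 unthinned. The medians were 16 and 17 in P6- cells of the same prefix, and 14 and 16 in all P6- cells.

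Correlations between abundant mitochondrial genes over cells were weak. Among the P6+ cells, Spearman's rho between pairs of 7 genes ran up to 0.43, for mt-Nd4 and mt-Cytb, and was 0.25 for the 2 rRNAs (n = 32 cells). These values share the total reads of each cell as denominator.

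Of the P6- cells kept, 8 exceeded the limit of 10%, with shares from 11.9 to 40.7%, and 0 of the 32 P6+ cells did. Prefix 5 held 4 of them, prefix 7 held 2, and prefixes 8 and 9 held 1 each. They had 2429 to 4218 genes and 629840 to 2223552 reads. mt-Cytb led in 3 of the 8, mt-Rnr2 in 2, mt-Co1 in 2 and mt-Nd1 in 1, so different genes led. In the cell of 40.7%, mt-Cytb alone took 22.6% of all reads. Without these 8 cells the log2 ratio over all prefixes was -1.54, or 2.90-fold lower.

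Summed over the nuclear subunits listed for complexes I to V, the level was not lower in P6+ cells. Complex II, which is among them, has no subunit encoded by mitochondrial DNA. The 44 nuclear subunits listed for complexes I to V summed to 9733 cpm in P6+ cells, 7289 cpm in P6- cells of the same prefix and 8257 cpm in all P6- cells. Mitochondrial reads were thus 1.46 times the nuclear subunit reads in P6+ cells, 7.74 times in P6- cells of the same prefix and 6.11 times in all P6- cells. These values depend on which subunits were listed. Among all genes at 20 cpm, 47.2% were at least 2-fold higher in P6+ cells within the prefix and 25.3% over all prefixes, beside the 25.5% and 26.1% that were lower. Of the 10 listed subunits of complex IV, all at 20 cpm or more, 0 were at least 2-fold lower and 5 at least 2-fold higher within the prefix, and 0 and 1 over all prefixes, where Cox8a, an accessory subunit, had 403 against 179.6 cpm. The complex I subunits were the ones with a lower sum within the prefix, at 786 against 1026 cpm. Of these, 1 of 7 was lower and 2 were higher within the prefix, and 1 and 1 over all prefixes. For complex III the counts were 1 and 4 of 9, then 1 and 2 of 9. For complex V they were 0 and 4 of 12, then 1 and 3 of 13, and for complex II 0 and 2 of 3, then 2 and 1 of 4. Put together, these counts of higher subunits were not above the share of all genes in either comparison. Uqcrh, a small subunit of complex III, had 219 cpm in P6+ cells, 44.3 cpm in P6- cells of the same prefix and 105.6 cpm in all P6- cells, and Atp5e of the ATP synthase had 215.6, 41.8 and 99.2 cpm. Sdhb, the iron-sulfur subunit of complex II, had 328, 123.2 and 149 cpm. The subunits named here are all on the higher side, and the lower ones are given by their counts only. Without 1 P6- cell of the same prefix, the levels there were 25.5 cpm for Uqcrh and 49.2 cpm for Sdhb.

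Nuclear genes that maintain, process and translate mitochondrial RNA were counted differently in the 2 comparisons. The 14 genes of mitochondrial DNA maintenance and transcription summed to 405 cpm in P6+ cells, 305 cpm in P6- cells of the same prefix and 425 cpm in all P6- cells. Of 6 at 20 cpm, 1 was at least 2-fold lower and 3 higher within the prefix, and of 7 over all prefixes, 2 and 1. The 22 genes of RNA processing and stability summed to 663, 360 and 768 cpm, with 2 lower and 11 higher of 15 within the prefix and 6 and 6 of 17 over all prefixes. The 12 translation and membrane insertion genes summed to 351, 375 and 336 cpm, with 1 and 4 of 6, then 2 and 2 of 7. The 8 transcriptional regulators summed to 336, 261 and 320 cpm, with 1 and 3 of 4, then 2 and 2 of 5. Within the prefix, more members were thus higher than lower in each of these 4 lists, as was the case for all genes at 20 cpm, while over all prefixes this was so in none of them. The sums within the prefix rested on few P6- cells. Without 1 P6- cell, 305 cpm became 198 cpm, 360 became 97.9 cpm, 375 became 55.6 cpm and 261 became 120.6 cpm, and for maintenance and transcription that cell held 99.8% of the P6- reads of Tfam, the transcription and packaging factor of mitochondrial DNA. The medians over cells of the maintenance sum were 229.99 cpm in P6+ cells, 5.83 cpm in P6- cells of the same prefix and 3.78 cpm in all P6- cells. Of 10 genes of mitophagy in the table, 6 reached 20 cpm, with 1 lower and 3 higher within the prefix and 2 and 2 over all prefixes. Among them, Sqstm1, which encodes a cargo receptor of autophagy, had 2762 cpm in P6+ cells, 480.4 cpm in P6- cells of the same prefix and 1127 cpm in all P6- cells, with 10 or more reads in 30 of 32, 8 of 11 and 72 of all P6- cells. Tax1bp1, another autophagy receptor, had the opposite order at 473, 986 and 956 cpm, and was short of 2-fold lower at 707 cpm in P6- cells of the same prefix and 875 cpm in all P6- cells when 1 of them was left out.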

How the data were processed

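The authors aligned 150-base paired-end reads to GRCm38 with STAR 2.6.0a, counted reads per gene with its gene counting, which keeps uniquely mapped reads that overlap 1 gene, replaced Ensembl identifiers by names and deposited raw counts for 176 cells, 32 P6+ and 144 P6-, of which 32 and 137 were kept (11 of the same name prefix and 126 of others). FastQC 0.11.7 and SAMtools 0.1.19 are also named in the submitters' processing notes. The tetramer sign deposited by the authors matched the label of 176 of 176 cells.

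Rows of the same name were averaged (81 names, none of them mitochondrial). The counts of all cells in a group were added up and given as percent of all reads on genes or as reads per 1000000 (cpm). Log2 ratios of genes used a pseudocount of 1 cpm, and a gene was counted as past a ratio at 2-fold with at least 20 cpm in the higher group. Each group is 1 sample, because cells are not replicates, so no test was made. Intervals are exact at 95%, and a count of 0 allows 3 counts. The ratio and its interval were tested on simulated counts. No doublet caller was run, since wells received 1 sorted cell. With the limit of 10% mitochondrial reads, 129 P6- cells would remain, and the minimum mapping rate of the methods was not used here. The filters of the authors, which included that rate, kept all P6+ cells but fewer P6- cells than these 129. No alternative used their set of cells.

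Genes named were all 13 mRNA and 2 rRNA genes, tRNA genes of at least 10 cpm in a group and the 3 with most reads, and, of nuclear lists, genes at least 2-fold apart with 20 cpm in the higher group and 10 reads in at least 50% of its cells, with examples given from these. The gaps described for mt-Nd genes and mt-Rnr1, the genes Neat1, Ighm, Cd79b and Tfam, and the nuclear copies, were chosen after values were seen. The members and lists were chosen with earlier results of these data known. Positions and sequences are from GENCODE vM21 on GRCm38, the build of the files. Copies were annotated nuclear genes with at least 50 stretches of 50 bases in common with a mitochondrial gene, aligned with Biopython 1.88. Alternatives changed the cells kept, the pooling, the denominator (with TMM factors of edgeR 4.0.16 and size factors of DESeq2 1.42.0, without a test), the depth, the pseudocount and the cells left out. Python 3.11.15, pandas 2.3.3, scipy 1.17.1 and R 4.3.3 were used.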

Additional observations from a re-analysis of the deposited data

How the results depend on the processing

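Every alternative left the mitochondrial share lower in P6+ cells, in 24 of 24 values. Within the same name prefix, the log2 ratio of -1.99 became -1.98 with all deposited cells, -1.97 as a mean and -2.32 as a median over cells, -2.05 over nuclear reads, -2.06 with TMM factors, -2.08 with DESeq2 size factors and -1.97 with thinned cells, and ran from -2.06 to -1.88 when each cell was left out in turn. Over all prefixes, -1.83 became -1.54 under the limit of 10%, -1.90 as a mean and -1.52 as a median over cells, -1.88 over nuclear reads, -1.89 with TMM factors, -1.82 with DESeq2 size factors and -1.90 with thinned cells, and ran from -1.90 to -1.75 with single cells left out. Added after seeing the data, P6- cells of the same lane gave -1.90 and those of the other prefixes -1.81. In both comparisons 0 of 6 classes were higher under each alternative that counted them. The number of genes at least 2-fold lower within the prefix, 13 of 13, was 12 of 13 by means over cells and with thinned cells, 9 of 12 by cell medians (10 of the same 13 genes), 18 of 37 with no minimum level, and ran from 10 to 13 with single cells left out. Counting intervals are narrow because reads are many, and the spread between animals is unknown. No paired analysis was possible because replicate numbers only name cells and no result comes from a test.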

Other observations

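Among the wells left out for low depth, 6 held 16810 to 66417 reads with 2327 to 5816 genes, and all were P6-. Their mitochondrial shares were 0.416 to 0.815%, under the lowest share of any P6- cell kept, 0.893%, while the P6+ cells began at 0.505%. They enter no comparison above except the one with all deposited cells.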
